A study of Mus musculus with 24 samples.

Results

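The promoters described here carried H3K27me3 in XX pregranulosa cells at E13.5 (days of embryonic development) and in none of the other 3 gonadal supporting-cell populations profiled. Each promoter is a window of 4001 bp that reaches 2 kb to either side of an annotated transcription start site (TSS), with 1 TSS per gene of the mm9 GENCODE annotation on chromosomes 1 to 19. A window was kept when no H3K27me3 region touched it in Sertoli cells or in the progenitors of either sex and at least 1 bp of an H3K27me3 region lay in it in pregranulosa cells. This held for 391 of 34653 windows, or 1.51% of the 25973 windows that were free of the mark in the other 3 populations. The promoters were thus chosen by their H3K27me3 calls, so their H3K27me3 values below are a description and no test is attached to them. The mirror class, H3K27me3 only in Sertoli cells, held 1115 windows, 4.18% of the 26697 that were free of it elsewhere.

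The cells were sorted by FACS from pooled gonads of C57BL/6 x CD1 embryos that carried a fluorescent reporter. XY and XX progenitor cells came from *SF1-eGFP* gonads at E10.5, Sertoli cells from XY *Sox9-CFP* gonads at E13.5, and the cells labelled granulosa cells, the pregranulosa cells of the study, from XX *TESM-CFP* gonads at E13.5. The comparison asks which promoters became marked for silencing on the female side as the supporting lineage took its fate. ChIP for H3, H3K4me3 and H3K27me3 had 2 replicates in every population (24 samples), but each deposited list joined its replicates, so there is 1 list per mark and population and no spread between replicates. No test therefore compares populations, and the exact (Clopper-Pearson) 95% intervals printed with percentages cover counting error only, as if promoters were independent. The lists give positions of calls and no level. H3K27me3 tags ranged from 6470151 in XY progenitors to 44446456 in Sertoli cells, and the number is unknown for pregranulosa cells. H3K4me3 tags numbered 10162534 in XY progenitors, 49254553 in XX progenitors and 31104760 in Sertoli cells, and are likewise unknown for pregranulosa cells. A window without a call may hold the mark below the threshold, and the part of depth in the results below was not tested.

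H3K27me3 is laid down by the Polycomb repressive complex PRC2 and read by CBX proteins of PRC1, and it marks promoters that are held silent during development. H3K4me3 is laid down by Trithorax-group complexes at promoters that are active or open to activation, most of which are rich in CpG dinucleotides. A promoter that holds both marks is called bivalent, and in the early gonad such promoters include genes that drive the testis or the ovary fate.

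The sequences that follow are the 200 bases upstream of the TSS of promoters on which the results turn, read from mm9 and printed 5′ to 3′ along the gene. None of these bases is exonic in the annotation. *Gpr39* (chr1:127573372-127573571, plus strand), *Tgm5* (chr2:120911578-120911777, minus), *Ccdc63* (chr5:122588967-122589166, minus) and *Clec4e* (chr6:123239890-123240089, minus) stand for the classes with H3K4me3 in both XX populations, in the progenitors alone, in pregranulosa cells alone and in neither. The first 3 had the most covered bases among the protein-coding promoters of their class, with ties ordered by domain width, and *Clec4e* came after *Socs6*, whose sequence is not shown. *Nceh1* (chr3:27081687-27081886, plus) leads the Sertoli-specific genes and *Khdrbs3* (chr15:68758650-68758849, plus) the pregranulosa-specific genes, while *Dusp6* (chr10:98725665-98725864, plus) was added after its values were seen. Capitals mark each CpG.
Gpr39: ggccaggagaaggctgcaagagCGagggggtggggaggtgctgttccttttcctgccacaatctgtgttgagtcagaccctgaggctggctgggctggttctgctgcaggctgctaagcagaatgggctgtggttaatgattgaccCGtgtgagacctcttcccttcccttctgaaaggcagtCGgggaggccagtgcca
Tgm5: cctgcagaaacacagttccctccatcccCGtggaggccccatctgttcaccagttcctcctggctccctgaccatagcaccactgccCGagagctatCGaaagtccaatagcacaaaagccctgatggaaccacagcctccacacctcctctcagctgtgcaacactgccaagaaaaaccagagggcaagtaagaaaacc
Ccdc63: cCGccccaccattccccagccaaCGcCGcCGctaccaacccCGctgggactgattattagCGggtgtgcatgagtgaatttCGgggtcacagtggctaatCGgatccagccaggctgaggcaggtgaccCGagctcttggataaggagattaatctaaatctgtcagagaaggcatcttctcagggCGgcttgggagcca
Clec4e: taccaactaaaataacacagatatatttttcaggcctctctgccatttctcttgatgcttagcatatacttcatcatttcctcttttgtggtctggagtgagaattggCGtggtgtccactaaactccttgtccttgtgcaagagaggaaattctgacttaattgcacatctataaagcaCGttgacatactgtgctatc
Nceh1: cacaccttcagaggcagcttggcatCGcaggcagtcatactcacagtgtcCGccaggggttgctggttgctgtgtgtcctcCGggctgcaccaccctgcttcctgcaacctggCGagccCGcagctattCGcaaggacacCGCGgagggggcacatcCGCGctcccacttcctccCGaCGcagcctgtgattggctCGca
Khdrbs3: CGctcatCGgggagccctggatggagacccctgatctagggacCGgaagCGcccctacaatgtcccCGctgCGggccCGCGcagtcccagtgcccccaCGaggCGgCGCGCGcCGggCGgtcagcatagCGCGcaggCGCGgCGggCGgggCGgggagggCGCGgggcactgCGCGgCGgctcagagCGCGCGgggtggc
Dusp6: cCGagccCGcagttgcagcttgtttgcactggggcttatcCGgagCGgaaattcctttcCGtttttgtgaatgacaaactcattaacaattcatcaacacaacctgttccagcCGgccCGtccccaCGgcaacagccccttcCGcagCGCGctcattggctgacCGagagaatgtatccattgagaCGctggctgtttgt
The *Khdrbs3* stretch held 30 CpG, those of *Nceh1* and *Dusp6* 13 each and that of *Ccdc63* 10. The *Gpr39* and *Tgm5* stretches held 3 each and that of *Clec4e* 2.

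The markers of the sorted cells were called as their labels say, with exceptions. *Wnt4*, *Rspo1* and *Bmp2*, which act in the ovary pathway, had no H3K27me3 base in their windows in pregranulosa cells, against 3496 to 4001 in the other 3 populations. *Sox9*, *Fgf9*, *Dmrt1* and *Sox8*, which act in the testis pathway, had none in Sertoli cells and 4001 in pregranulosa cells. *Foxl2*, the ovarian forkhead factor, had H3K27me3 over all 4001 bases in every population, and *Fst*, the activin-binding follistatin, kept 1284 bases in pregranulosa cells against 4001 elsewhere. Of markers of other cells, *Pecam1* and *Tek* (endothelium), *Ptprc* (blood) and *Ddx4* (germ cells) had neither mark in any population. *Cdh5* (endothelium) had 1001 bases of H3K4me3 in pregranulosa cells only, and *Dazl* (germ cells) had H3K4me3 in all 4. *Dppa3* (germ cells) had 4001 bases of H3K27me3 in the other 3 populations and none in pregranulosa cells. Its H3K4me3 covered 1260 bases in XX progenitor, 1561 in Sertoli and 1254 in pregranulosa cells. *Kdr* (endothelium), *Tal1* (blood), *Pou5f1* (germ cells), *Pax2* and *Pax8* (mesonephros) had 4001 bases of H3K27me3 in all 4. Over the whole marker lists, H3K27me3 was called in pregranulosa cells at 16 of 30 endothelial windows, 13 of 36 blood and immune windows and 7 of 28 germ cell windows, against 6290 of all 34653 windows. Lists of called regions give no summed level of these markers, and a part of other cells in the results was not tested.

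In most of these promoters the H3K27me3 region was separate from domains present elsewhere, a share that the rule itself shapes. An overlap could arise only outside the window. The share given below moved to 68.2% with windows of 1 kb on either side and to 91.3% with the other lists free within 5 kb of the TSS. Behind the 391 promoters stood 331 of the 10939 autosomal pregranulosa regions: 288 touched 1 of these promoters, 37 touched 2 and 6 touched 3 or more. In 293 promoters (74.9%, interval 70.3 to 79.2%) the pregranulosa region overlapped no H3K27me3 region of another population, and the Sertoli-only class had 76.7% by the same measure. Where there was an overlap outside the window it was most often with Sertoli cells (86 promoters), then XY progenitors (47) and XX progenitors (39). That is also the order of the autosomal bases under H3K27me3 in these populations, 156, 89.7 and 82.2 Mb. The nearest H3K27me3 region of the other 3 populations lay a median of 30559 bp from the window. It was within 5 kb for 101 promoters, while 158 (40.4%) had none within 50 kb.

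The domains were narrower than those at constitutive Polycomb targets. Their median width was 7788 bp (range 5001 to 155716), against 11807 bp for pregranulosa regions at the 4457 promoters with H3K27me3 in all 4 populations. Widths were counted once per promoter, so a domain shared by several promoters counts more than once. A single peak of 5001 bp, the narrowest possible, was the region at 87 of the 391 promoters (22.3%, 18.2 to 26.7%). The share was 3.63% (3.10 to 4.23%) at the constitutive targets. The Sertoli-only class was alike, with a median of 7753 bp and 21.3% single peaks. The TSS itself lay in the region in 266 promoters (68.0%), and in 94.3% of the constitutive targets. In 47 promoters the region lay only downstream of the TSS and in 78 only upstream. The median window held 3190 bp of H3K27me3, and 148 windows (37.9%) were covered whole.

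**Figure D1:**
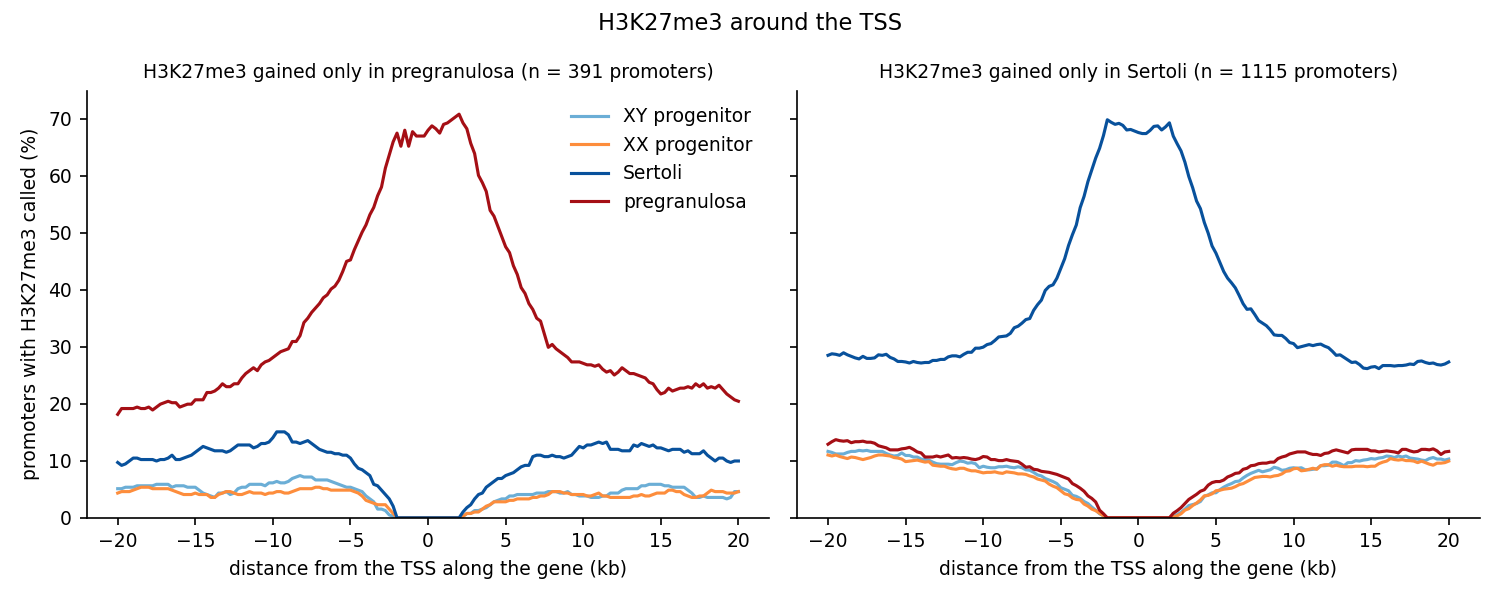
Percent of promoters under a called H3K27me3 region (y) by distance from the TSS along the gene in kb (x), for the 391 promoters with H3K27me3 only in pregranulosa cells (left) and the 1115 with it only in Sertoli cells (right), 1 line per population. The zero within the window in the other lines is set by the rule. The pregranulosa line is at 68.0% at the TSS on the left, and the Sertoli line at 67.6% on the right.

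At the threshold of the rule, the promoters with the fewest covered bases were *Lamr1-ps1*, a pseudogene, with 11 bp, *Atp6v0e*, a proton pump subunit, with 14 bp, and *Zbtb34*, a zinc finger gene, with 14 bp. Just outside it, the pregranulosa region ended 12 bp beyond the window of *Gm4795*, 17 bp beyond that of *Scrn2* and 20 bp beyond that of *Gm10735*. At most 500 bp were covered in 39 of the 391 promoters. Another 72 windows without the mark in any population had a pregranulosa region within 500 bp of their edge.

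H3K4me3, which the rule did not use, was called in 219 of the 391 promoters in pregranulosa cells (56.0%, 50.9 to 61.0%), against 51.1% of all promoters. The share was 50.1% in XY progenitor, 56.8% in XX progenitor and 53.5% in Sertoli cells. For all promoters these shares were 48.6%, 50.8% and 49.6% in the same order. From XX progenitor to pregranulosa cells, 200 promoters held H3K4me3 in both (51.2%, 46.1 to 56.2%), against 48.7% of all promoters, so this share lay near the background. H3K4me3 was called in pregranulosa cells only at 19 promoters (4.86%) and in XX progenitors only at 22 (5.63%), and 150 (38.4%, 33.5 to 43.4%) had it in neither. For all promoters these shares were 2.40%, 2.01% and 46.9%.

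The 391 promoters were thus mixed, between the constitutive targets and the unmarked promoters. Of the promoters with H3K27me3 in all 4 populations 88.4% held H3K4me3 in both XX populations, of those without H3K27me3 39.3%, and of the Sertoli-only class 38.9% (36.0 to 41.9%). Measured from XY progenitor to Sertoli cells, the lineage that carries its mark, the Sertoli-only class had 33.5% (30.7 to 36.3%). Type of gene went with the share in both XX populations. Among the 234 protein-coding promoters 157 held H3K4me3 in both XX populations (67.1%, 60.7 to 73.1%), against 65.2% of all protein-coding promoters and 47.3% (43.5 to 51.1%) of protein-coding Sertoli-only promoters. Among the other 157, which are noncoding genes, pseudogenes and gene segments, 43 did (27.4%, 20.6 to 35.1%). The share over all windows of these types is not given here. Over all promoters, too, the share was lower with these types included (48.7%) than for protein-coding genes alone (65.2%). The difference by type of gene is thus not particular to the 391 promoters.

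**Figure D2:**
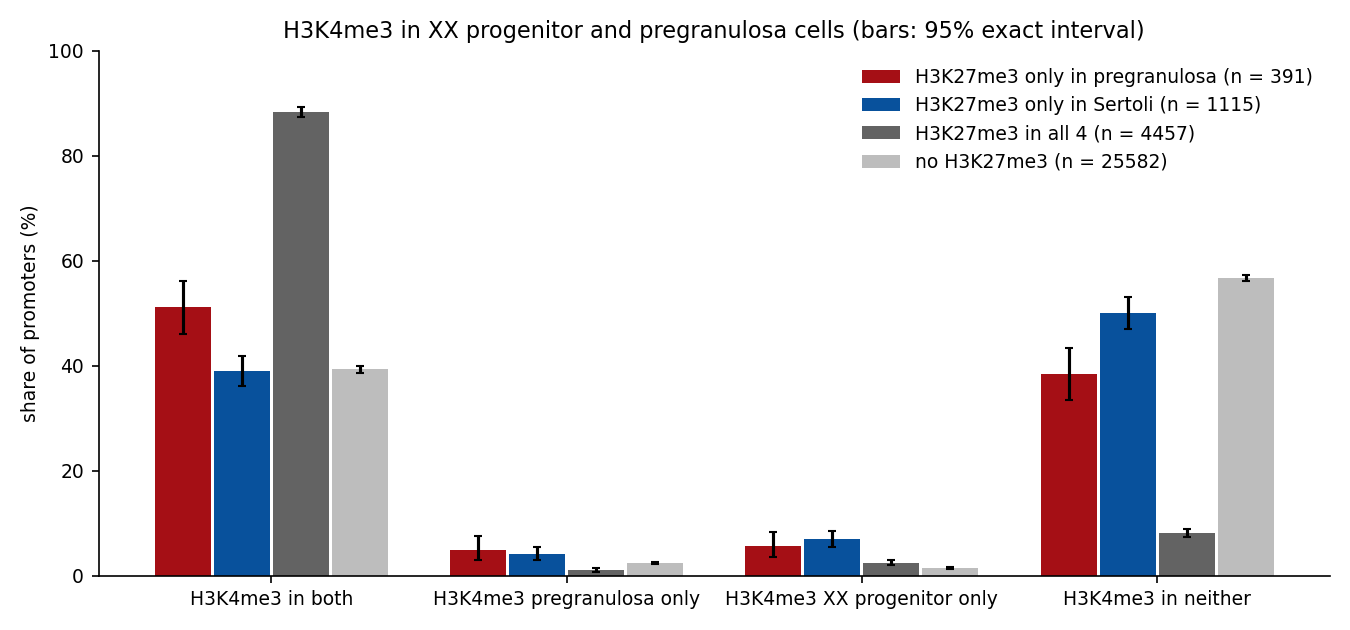
Share of promoters in percent (y) by H3K4me3 call in XX progenitor and pregranulosa cells (x), for promoters with H3K27me3 only in pregranulosa cells, only in Sertoli cells, in all 4 populations and in none. Black bars are exact 95% intervals for counting error. The promoters with H3K27me3 only in pregranulosa cells have 51.2% with H3K4me3 in both and 38.4% in neither.

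Of the 157 protein-coding promoters with H3K4me3 in both XX populations, 6 are described here, those with whole windows under H3K27me3 and then the widest domains. *Gpr39* (chr1:127573572-127770439), a zinc-sensing receptor, lay under a domain of 48300 bp that covered its first exon. Its window held 1259 bp of H3K4me3 in XX progenitor, 1001 bp in Sertoli and 1265 bp in pregranulosa cells, and none in XY progenitors. The domain at *Nceh1* (chr3:27081887-27183530), which hydrolyses cholesterol esters, spanned 34709 bp from -28869 to 5839 bp around the TSS. *Lrrc1* (chr9:77278630-77392677), a cell-polarity scaffold, lay under 31552 bp and held H3K4me3 over 3345, 4001, 3898 and 3798 bp in XY progenitor, XX progenitor, Sertoli and pregranulosa cells. *Irak4*, a kinase of interleukin-1 and Toll-like receptor signalling, and *Pus7l*, a pseudouridine synthase homologue, start back to back on chromosome 15 and shared 1 domain of 24168 bp. Both windows held 2452, 2283, 2075 and 2355 bp of H3K4me3 in the same order. The sixth, *BC027582*, lay in the domain of *Olfml3* described below.

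Where H3K4me3 was called in XX progenitors and not in pregranulosa cells, 8 of the 22 promoters were protein-coding, and the 6 with the most covered bases follow. *Tgm5* (chr2:120871847-120911577), an epidermal transglutaminase, had H3K4me3 only in XX progenitors, over 1001 bp at the TSS (-272 to 728 bp). In pregranulosa cells a domain of 36165 bp lay over the TSS, from -13456 to 22708 bp, and pregranulosa regions together covered 83.1% of the gene. XY progenitors and Sertoli cells had no H3K4me3 call in the window either, and no H3K27me3 there. Narrower H3K27me3 regions lay upstream of its window in XY progenitors (-10489 to -5489 bp) and in Sertoli cells (-10164 to -2129 bp). *Enpp3*, an ectonucleotidase, held 1328 bp of H3K4me3 in XY progenitors, 1498 bp in XX progenitors, 1491 bp in Sertoli cells and none in pregranulosa cells, under a domain of 30708 bp. *Tnfsf15*, a ligand of the TNF family, had H3K4me3 only in XX progenitors (1478 bp). *Sema3g*, a secreted semaphorin, and *Nisch*, which encodes nischarin, shared 1 domain of 9020 bp and each had 1001 bp of H3K4me3 in XX progenitors and in Sertoli cells. *Olfm4*, a secreted glycoprotein, had 1258 bp in XX progenitors only. For *Tgm5*, *Sema3g* and *Nisch* the H3K4me3 call was a single peak of the least width, so 1 call decides their class.

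In the 19 promoters with H3K4me3 in pregranulosa cells and not in XX progenitors, neither mark was called at E10.5 in XX cells and both were called at E13.5. *Ccdc63*, a protein of sperm flagella, held 705 bp of H3K4me3 in pregranulosa and 712 bp in Sertoli cells and none at E10.5. *Tmem140* held 1835 bp in pregranulosa, 1257 bp in Sertoli and 1001 bp in XY progenitor cells. *Krt33a*, a hair keratin, held 660 bp in pregranulosa cells only. *Calml3*, a calmodulin-like gene, held 1486 bp in pregranulosa and 1001 bp in XY progenitor cells, while *Gm5528* and *Slfn8*, a schlafen gene, each had a single peak of 1001 bp in pregranulosa cells only. Of the 6 genes only *Tmem140* and *Ccdc63* had the mark in Sertoli cells.

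Of the 150 promoters without H3K4me3 in either XX population 61 were protein-coding, and the 6 with whole windows under the widest domains follow. *Socs6*, a suppressor of cytokine signalling, lay under a domain of 35949 bp. *Clec4e*, a lectin receptor of macrophages, and *Vmn2r19*, a vomeronasal receptor, shared 1 domain of 30961 bp. *F930017D23Rik* (27831 bp), *Rp1*, a photoreceptor microtubule protein (25229 bp), and *Bcl2a1c*, a relative of the Bcl-2 family (24755 bp), followed. These 6 windows had no H3K4me3 call in any population and were covered whole by H3K27me3 in pregranulosa cells.

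In promoters with both marks in pregranulosa cells, the marks were called over the same bases more often than not. Much of this is set by the calls themselves. Both marks had to touch a window of 4001 bp, and no H3K27me3 region was narrower than 5001 bp. The overlap expected from this alone was not computed, so the shares are a description of positions only. They also differ with cover, as the median window held 3190 bp of H3K27me3 here and 4001 bp at promoters marked in all 4 populations. Their regions overlapped in 188 of 219 promoters (85.8%, 80.5 to 90.2%), and the H3K4me3 bases of the window lay wholly under H3K27me3 in 119 (54.3%, 47.5 to 61.1%). At promoters with H3K27me3 in all 4 populations these shares were 99.3% and 90.6%. The Sertoli-only class, measured in Sertoli cells, had 80.3% and 51.4%. Among the 148 promoters with both marks and the TSS in the H3K27me3 region, the regions overlapped in all 148. In 116 of them (78.4%, 70.9 to 84.7%) the H3K4me3 bases were wholly covered.

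The width of H3K4me3 was compared where the mark was called in both populations. H3K4me3 tags differed between populations as given above, and the part of depth in these widths was not tested. In pregranulosa cells it covered fewer window bases than in Sertoli cells at 96 of 197 promoters (48.7%, 41.6 to 55.9%), against 31.6% (30.9 to 32.3%) of all promoters. In the Sertoli-only class 21.0% (17.2 to 25.3%) were narrower in pregranulosa cells. Against XX progenitors, 121 of 200 promoters were narrower in pregranulosa cells (60.5%, 53.4 to 67.3%), against 53.2% of all promoters, 59.2% (54.4 to 63.9%) of the Sertoli-only class and 65.2% (63.7 to 66.7%) of promoters with H3K27me3 in all 4 populations. For promoters of the Sertoli-specific list described next, 28 of 47 were narrower in pregranulosa than in Sertoli cells (59.6%, 44.3 to 73.6%), with medians of 2841 and 3068 bp. The other promoters of that list gave 51.9% (49.1 to 54.8%), and the promoters off the list that gained H3K27me3 only in pregranulosa cells 45.3% (37.2 to 53.7%). These 3 intervals overlap and cover counting error only, and no test compared the groups.

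Genes that Sertoli cells express were frequent among these promoters. The study used lists of Sertoli-specific and pregranulosa-specific genes from expression arrays of an earlier study, which were not made from these libraries. Of the 391 promoters 49 belonged to the Sertoli-specific list (12.5%) and 9 to the pregranulosa-specific list (2.30%). The Sertoli-only class held 13 (1.17%) and 57 (5.11%). The contrast of 49 with 13 on the Sertoli-specific list shrank to 30 with 20 when only the widest 75% of pregranulosa regions were used, and to 36 with 18 with regions wider than 5001 bp. Among windows free of H3K27me3 in the other 3 populations, 49 of 931 on the Sertoli-specific list gained it only in pregranulosa cells (5.26%, 3.92 to 6.90%). The pregranulosa-specific list gave 9 of 695 (1.29%, 0.594 to 2.44%) and other protein-coding genes 176 of 13372 (1.32%), both close to the 1.51% of all such windows. Among promoters with H3K4me3 in both XX populations, the shares were 5.55%, 1.42% and 1.42% in the same order.

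**Figure D3:**
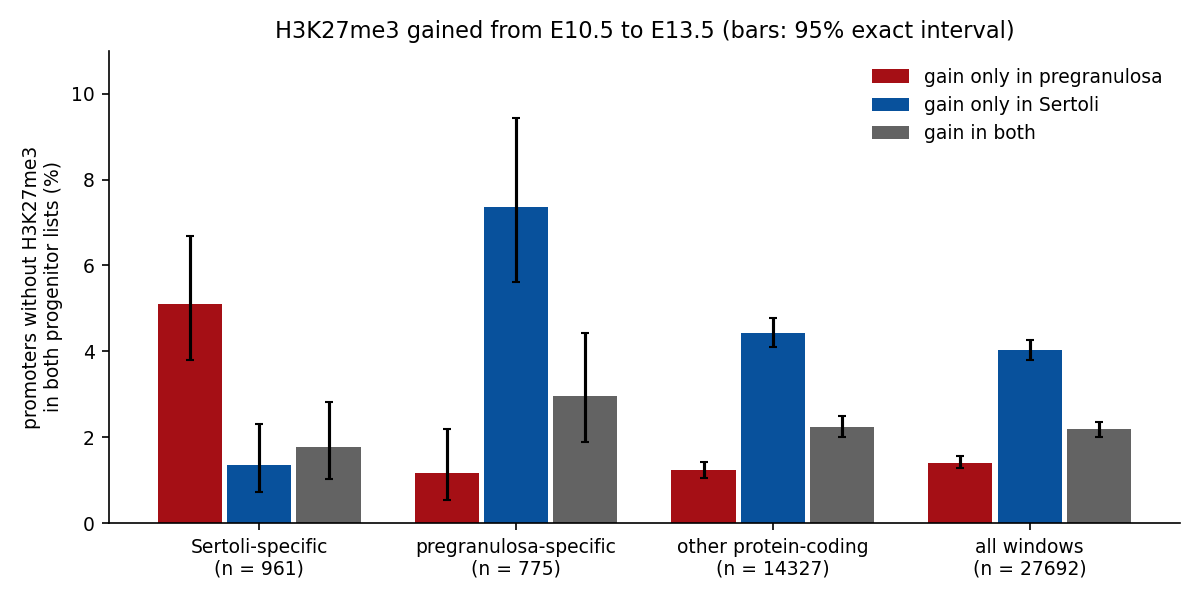
Percent of promoters without H3K27me3 in both progenitor populations (y) that gained it at E13.5 only in pregranulosa cells, only in Sertoli cells or in both, by gene list (x). Black bars are exact 95% intervals for counting error. Of Sertoli-specific genes 5.10% gained it only in pregranulosa cells and 1.35% only in Sertoli cells, and of pregranulosa-specific genes 1.16% and 7.35%.

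The same promoters were also set on the windows free of H3K27me3 in both progenitors. This changes only the denominators and adds the gains in both E13.5 populations, so it is not a second result. Of 961 Sertoli-specific promoters, 49 gained the mark only in pregranulosa cells, 13 only in Sertoli cells and 17 in both. Of 775 pregranulosa-specific promoters, 9 gained it only in pregranulosa cells, 57 only in Sertoli cells and 23 in both. For other protein-coding genes the shares were 1.23%, 4.43% and 2.24%, so a gain only in Sertoli cells was the more frequent kind outside the Sertoli-specific list.

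Of the 49 Sertoli-specific promoters 47 held H3K4me3 in both XX populations, 36 had the TSS in the H3K27me3 region, and the exceptions for H3K4me3 were *Nisch* and *Fam83b*. H3K4me3 in both was called at 1244 of the 1351 windows of the whole list, so 47 of 49 is near the share of the list itself. Beside *Nceh1* and *Lrrc1*, the promoters with the most covered bases included *Scarb2* (chr5:92872899-92934634), a lysosomal membrane receptor, under a domain of 22563 bp. Its window held 3926, 3249, 3316 and 2841 bp of H3K4me3 in XY progenitor, XX progenitor, Sertoli and pregranulosa cells. *Rgs5*, a regulator of G-protein signalling, held 1742, 3672, 1252 and 1259 bp, widest in XX progenitors, which also had the most known H3K4me3 tags. *Robo1*, the receptor of Slit guidance cues, held 2731, 2224, 2718 and 2510 bp. *Ctgf*, a matricellular growth factor, lay wholly under its domain of 6388 bp (100% of the gene) and held 2622, 3177, 3438 and 2586 bp of H3K4me3. *Dusp6*, *Olfml1*, *Galnt10*, a mucin-type glycosyltransferase, *Cd38*, an NAD glycohydrolase, *E2f7*, an atypical E2F repressor, and *1700025G04Rik* also had whole windows under H3K27me3, with domains of 6267 (*E2f7*) to 15281 bp (*1700025G04Rik*).

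*Amh*, the anti-Müllerian hormone that Sertoli cells secrete to regress the Müllerian ducts, was the only gene of the testis pathway list among these promoters. H3K27me3 was called there only in pregranulosa cells, at chr10:80269269-80274269, from 1276 bp downstream of the TSS and past the 3′ end of the gene (chr10:80267993-80270393, plus strand). The region covered 46.9% of the gene, or 1010 exonic and 115 intronic bp in 2 of 5 exons, and 725 bp of the window. It did not reach the TSS. H3K4me3 covered 150 bp of the window in XY progenitor, 664 bp in XX progenitor, 3294 bp in Sertoli and 944 bp in pregranulosa cells. The Sertoli region (-1187 to 5877 bp) was the only one of the 4 to cover the TSS, while the pregranulosa region began at 1057 bp. The H3K27me3 region is a single peak and also touched the window of the neighbour *Jsrp1* by 30 bp. More of it lay in the body of *Jsrp1* than in *Amh*: 914 exonic and 2110 intronic bp in 4 of 7 exons, 60.5% of that gene. The call thus cannot be told apart from one at the neighbouring gene.

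**Figure D4:**
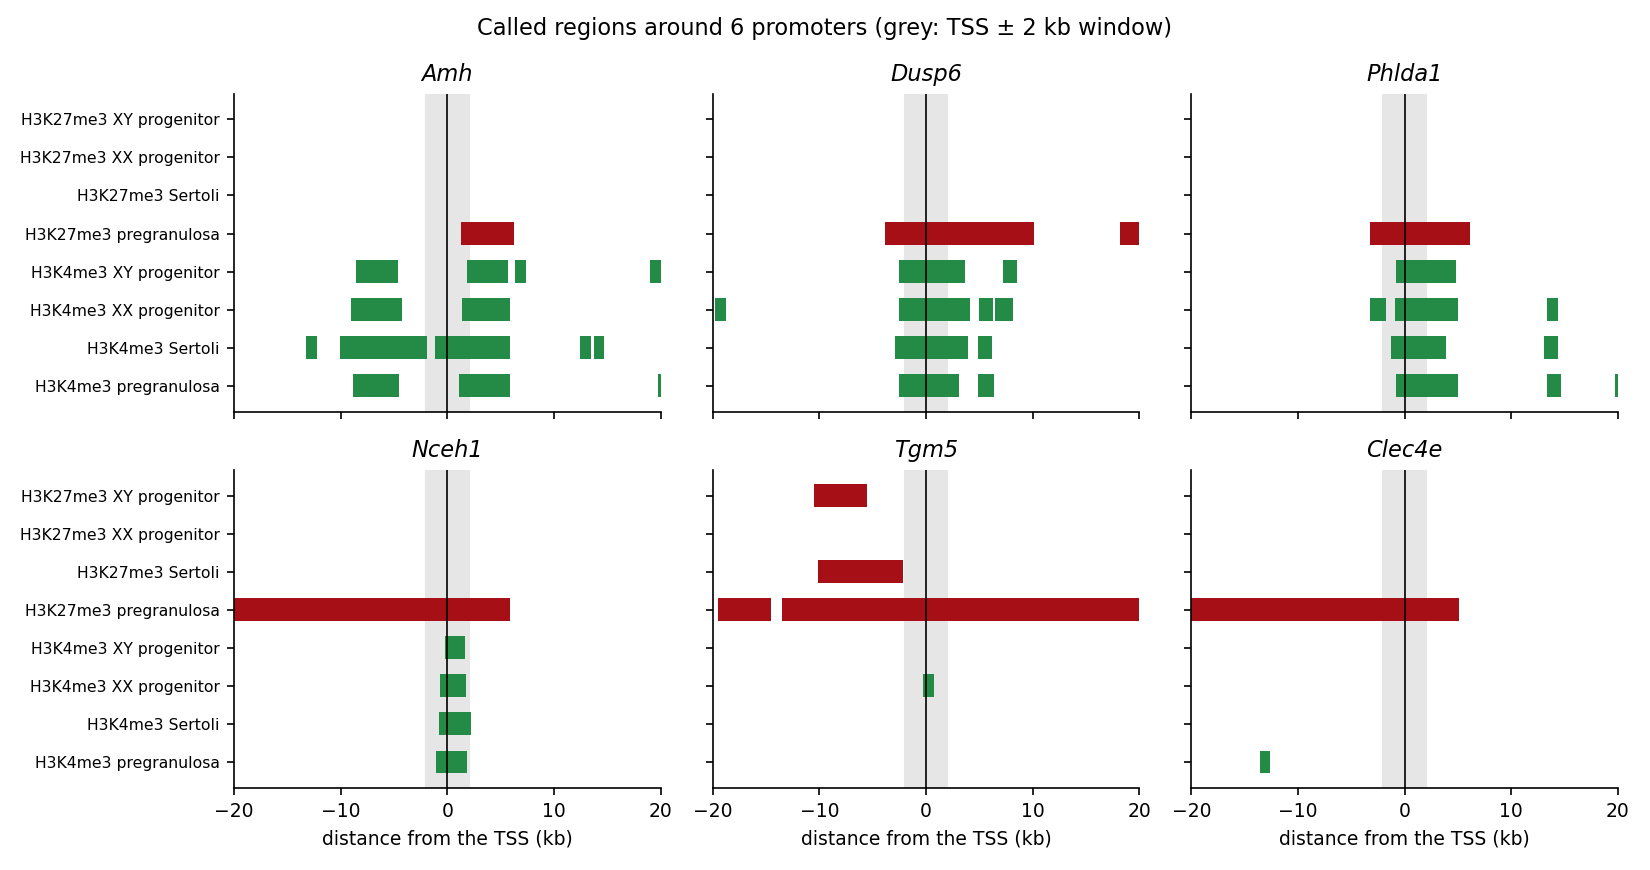
Called H3K27me3 (red) and H3K4me3 (green) regions in the 4 populations by distance from the TSS in kb (x), for 6 promoters. The grey band is the window of 2 kb on either side. H3K27me3 touches each window only in the pregranulosa row, and at *Amh* it starts 1276 bp downstream of the TSS.

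Other testis genes fell outside the class, many of them marked at E10.5 already. Of 31 windows of the testis pathway list 11 were free of H3K27me3 in the other 3 populations, and *Amh* was 1 of these, while 16 of the 31 carried it in pregranulosa cells. *Sox9*, *Fgf9*, *Dmrt1*, *Sox8*, *Dhh* and *Erbb3*, for example, had it in both progenitors and in pregranulosa cells and not in Sertoli cells. *Ptgds*, a prostaglandin synthase of Sertoli cells, had no H3K27me3 in any population and H3K4me3 only in Sertoli cells (2412 bp).

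The 9 pregranulosa-specific promoters all held H3K4me3 in each of the 4 populations, where 1040 of the 1115 windows of the whole list held it in both XX populations, and in 5 the TSS lay in the H3K27me3 region. *Khdrbs3* (chr15:68758850-68923942), an RNA-binding splicing regulator, lay under 11625 bp and held 2721, 2902, 2960 and 2992 bp of H3K4me3 in XY progenitor, XX progenitor, Sertoli and pregranulosa cells. *Phlda1*, a pleckstrin-homology protein, lay wholly under a domain of 9383 bp and *Plk2*, a polo-like kinase, under one of 6830 bp that covered 83.1% of the gene. *Ghr*, the growth hormone receptor, had 3812 covered bases. *Osbpl8* (2149 bp), *Dtwd1* (1848 bp), *Zfp40* (1709 bp), *Acsl5* (1449 bp) and *Zfp39* (205 bp) were covered in part. In *Zfp39*, *Zfp40*, *Dtwd1* and *Acsl5* the region touched no base of the gene and lay upstream of it.

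Of the other fixed lists, the germ cell list (28 windows, 18 free in the other 3 populations) had 1 such promoter, *Figla*, a basic helix-loop-helix factor of oocytes. Its region of 5001 bp ended 654 bp past the TSS, covered 2655 bp of the window, and no H3K4me3 was called in any population. None was found among Wnt signalling genes (0 of 62 windows), the ovary pathway (0 of 23), Polycomb and Trithorax genes (0 of 33), or endothelial (0 of 30), blood and immune (0 of 36), epithelial junction and keratin (0 of 36), interstitial and mesonephric (0 of 16) and steroidogenic (0 of 17) genes. Free of H3K27me3 in the other 3 populations, and so able to enter the class, were 6, 3, 24, 12, 15, 6, 1 and 10 of these windows in the same order. With 1.51% of all free windows in the class, less than 1 promoter would fall in each of these lists at the background share, and the zeros say nothing particular of them.

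Genes of the Fgf and Erk response stood out when the promoters were read, and a list of 15 was drawn up after they were seen, so its count supports nothing. Of its 15 windows 7 were free of H3K27me3 in the other 3 populations and 5 of these gained it in pregranulosa cells. Among all such free windows the share was 1.51%. *Spred1* and *Spred2* had the mark in no population. *Spry1* and *Dusp5* gained it in Sertoli cells as well, over 2942 and 4001 bp. *Spry4* and *Etv5* had it in both progenitors and in pregranulosa cells, and *Dusp4* in XY progenitors and pregranulosa cells. *Spred3* and *Etv4* had it in all 4 populations and *Il17rd* in the progenitors alone. *Dusp6* (chr10:98725865-98730122), a phosphatase that switches off Erk, lay wholly under a domain from -3815 to 10158 bp, and H3K4me3 covered its whole window of 4001 bp in all 4 populations. *Spry2*, a feedback inhibitor of receptor tyrosine kinases, also had 4001 bp of H3K4me3 in every population, and its H3K27me3 region began 724 bp downstream of the TSS and covered 1277 bp of the window. *Etv1*, an Ets factor downstream of Erk, had 448 bp, beginning 1553 bp downstream. *Fgfrl1*, a decoy-like Fgf receptor, had 2684 bp and *Phlda1* 4001 bp. *Dusp6* and *Etv1* were on the Sertoli-specific list and *Phlda1* on the pregranulosa-specific list.

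Of 8 olfactomedin-family windows, also grouped after the promoters were seen, 6 were free in the other 3 populations and 4 gained H3K27me3 in pregranulosa cells. This count likewise supports nothing, and the share among all free windows was 1.51%. *Olfm3* and *Olfml2b* had H3K27me3 in no population and *Olfm2* had it in all 4. *Olfm1* had it in the other 3 populations and not in pregranulosa cells. *Olfml1* and *Olfml2a* were covered over 4001 bp, *Olfml3* over 2283 bp and *Olfm4* over 2260 bp. *Olfml1* and *Olfml3* were on the Sertoli-specific list. H3K4me3 at *Olfml3* covered 1816, 3254, 2615 and 1998 bp in XY progenitor, XX progenitor, Sertoli and pregranulosa cells.

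By shared symbol prefix, 21 of 42 groups of 20 or more windows had a promoter in the class, which held 1.13% of all windows. Keratins had 5 of 107 windows (*Krt13*, *Krt32*, *Krt33a*, *Krt36* and *Krt40*), which lie in the type I keratin cluster of chromosome 11 and had no H3K4me3 except *Krt33a* in pregranulosa cells. The Sertoli-only class held 13 of the 107 keratin windows. The TNF and TNF receptor prefix had 3 of 42 (*Tnfsf15*, *Tnfsf8* and *Tnfrsf21*), of which *Tnfrsf21* held H3K4me3 in all 4 populations. Olfactory receptors had 5 of 1243, zinc finger (Zfp) genes 3 of 370 and vomeronasal receptors 1 of 435. Potassium channel genes (Kcn) had 0 of 94 and cytochrome P450 genes 0 of 105. Genes of these groups beyond the fixed rule were chosen after their values were seen.

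Some promoters shared a region and so are not separate events. The region with the most promoters, chr14:54774032-54830250 (56219 bp), touched 12 genes annotated as joining segments, among them *Traj59* of the T-cell receptor alpha locus. Of these 12, 6 held H3K4me3 in both XX populations, 3 in pregranulosa cells and not in XX progenitors, and 3 in neither. A region at chr3:103517155-103542206 touched *Olfml3*, *BC027582*, *Gm16520* and *Gm10964*. The region at chr3:133898268-133906150 touched *Cxxc4*, a CXXC-domain inhibitor of Wnt signalling that was not on the Wnt list, and *AC164408.1*, *Gm2078* and *Mir1895*. *Cxxc4* held 3792, 3975, 3029 and 2967 bp of H3K4me3 in XY progenitor, XX progenitor, Sertoli and pregranulosa cells and 3517 bp of H3K27me3 in the last. At chr11:99661691-99668008 the region touched *Gm11569* and both genes named *Gm11554*, and at chr3:27053018-27087726 it touched *Nceh1*, *1700125G22Rik* and *Ect2*, a gene of cell division that is also on the Sertoli-specific list. The region covered 1783 bp of the *Ect2* window and no base of the gene.

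**Figure D5:**
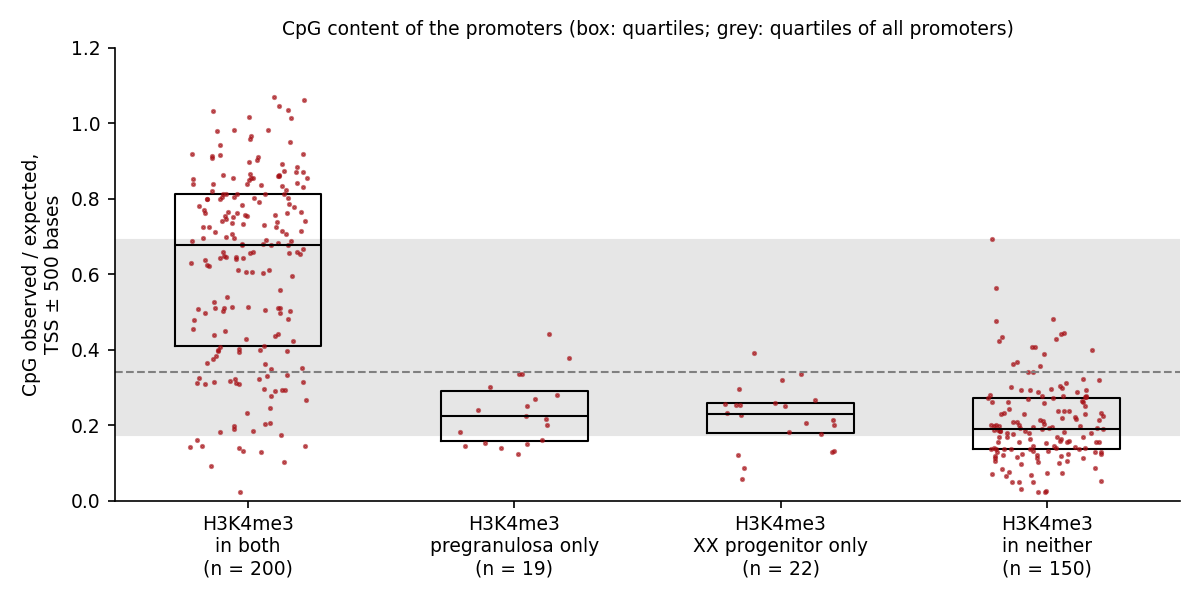
CpG observed over expected in the 1001 bp around the TSS (y) for each of the 391 promoters by H3K4me3 call in XX progenitor and pregranulosa cells (x). Boxes give quartiles, the grey band the quartiles of all promoters and the dashed line their median. The median is 0.68 with H3K4me3 in both and 0.19 with H3K4me3 in neither.

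CpG content around the TSS differed with the H3K4me3 call among the 391 promoters, and also between the H3K27me3 classes. The ratio of observed to expected CpG in the 1001 bp around the TSS had a median of 0.317, against 0.342 for all promoters, 0.274 for the Sertoli-only class and 0.607 for promoters with H3K27me3 in all 4 populations. With H3K4me3 in both XX populations the median was 0.677, in pregranulosa cells only 0.224, in XX progenitors only 0.230 and in neither 0.191. CpG-rich promoters (ratio above 0.6 and GC above 50%) made up 119 of the 391 (30.4%, 25.9 to 35.3%), against 31.1% of all promoters, 15.9% (13.8 to 18.2%) of the Sertoli-only class and 2228 of the 4457 constitutive targets. Of the 200 promoters with H3K4me3 in both XX populations 118 were CpG-rich (59.0%, 51.8 to 65.9%), against 63.4% of all such promoters, and of the 150 without it 1 was. The CpG counts of the printed sequences follow this in *Khdrbs3*, *Nceh1* and *Dusp6*, while *Gpr39* held H3K4me3 with 3 CpG.

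Motif letters were searched on both strands from 250 bp upstream to 50 bp downstream of the TSS. TATAAA was found in 47 of the 391 promoters (12.02%, 8.97 to 15.7%) and in 15.8% of all promoters, just above that interval. AAGGTCA, a half-site of nuclear receptors such as SF1, was found in 15 (3.84%, 2.16 to 6.25%) against 4.63% of all promoters. TGTTTAC, the core of forkhead sites, was found in 14 (3.58%, 1.97 to 5.93%) against 3.37%. For AAGGTCA and TGTTTAC the share of all promoters lay within the interval.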

How the data were processed

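ChIP-seq of H3, H3K4me3 and H3K27me3 covered 24 samples, 2 replicates per mark in each of 4 populations. Per the paper's methods and the file headers, the authors used Bowtie for alignment to mm9 and HOMER for peaks (histone style, H3 as input, peak size 5000 bp for H3K27me3 and 1000 bp for H3K4me3, 4.00-fold over input and local region). The deposited files are 8 lists of peak positions, 1 per mark and population with replicates joined. The deposited score is 1 for every peak and was not used. The 2 pregranulosa lists have no header, so their settings and depth are unknown. No other columns were used.

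Overlapping peaks of a list were joined, because 3 of the H3K27me3 lists hold overlapping 5001-bp windows and the pregranulosa list does not. Windows of 4001 bp around 1 GENCODE TSS per gene (mm9) were marked by an overlap of at least 1 bp. Shares have exact Clopper-Pearson 95% intervals. The promoters, lists and named-gene rules were chosen with earlier results of these data known. The lists of Sertoli-specific (1408 genes, 1351 windows) and pregranulosa-specific genes (1164 genes, 1115 windows) were those the study used, the Fgf and Erk list and the olfactomedin list were drawn up after the promoters were seen, and the 10 fixed lists and symbol prefixes were those reported above.

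Named genes were the 6 protein-coding promoters of each H3K4me3 class with the most H3K27me3 window bases (ties by domain width), up to 12 on each study list, each on a fixed list, those of the 5 regions with most promoters, and the 3 nearest the threshold on each side. Others are said to have been chosen after their values were seen, and the marker genes and *Ptgds*, *Dhh* and *Erbb3* likewise. The upstream sequence of *Amh* is not reported here. The joining of peaks, the covered bases and the rule that chose the promoters were tested on simulated peaks and windows. Joining and covered bases were checked against bedtools. Python 3.11.15, NumPy 2.4.6, SciPy 1.17.1, pandas 2.3.3, matplotlib 3.10.9 and bedtools 2.31.1 were used.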

Additional observations from a re-analysis of the deposited data

How the results depend on the processing

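No paired analysis was possible because each list joins its replicates, and for the same reason no replicate could be left out. Of 16 alternatives, 12 were planned and 4 (regions wider than 1 peak, the TSS inside the region, and the rule without the XY progenitor list or without both progenitor lists) were chosen after seeing the data. The number of promoters was 391 and lay between 266 and 438 in 14 of them. It was 234 with protein-coding genes alone and 900 when the 2 progenitor lists were not required to be free. The share with H3K4me3 in pregranulosa cells (56.0%) moved to 49.2% with windows of 1 kb on either side, 70.5% with protein-coding genes, 49.8% with windows that overlap no other window and 74.6% without the progenitor lists. The share with H3K4me3 in both XX populations (51.2%) moved to 44.5%, 67.1%, 45.2% and 71.6% in the same order. The share whose region overlaps no region of another population (74.9%) moved to 68.2% (1 kb windows), 91.3% (other lists free within 5 kb), 67.0% (widest 75% of regions), 68.0% (peaks within 5 kb joined), 69.1% (wider than 5001 bp), 82.0% (TSS inside) and 82.7% (without the progenitor lists). The ratio of these promoters to the Sertoli-only class (0.351) became 0.212 with the widest 75%, 0.25 with regions wider than 5001 bp and 0.559 without the progenitor lists, and lay between 0.333 and 0.392 in the other 13. The cause of these shifts was not tested beyond what each alternative leaves out. Promoters on the Sertoli-specific list numbered 49 and ran from 30 to 185 over the alternatives, those on the pregranulosa-specific list numbered 9 and ran from 5 to 23, and the Sertoli-only class had 4 to 21 and 37 to 115. Cutting the pregranulosa regions to the bases of the Sertoli list changed nothing, since they cover fewer autosomal bases. Counting on the study's own promoter windows, set out in the plan, was not run, because those windows are held here only in part. With 1 pooled list per population and no depth for pregranulosa cells, a promoter marked in 1 list and not in another may differ in depth.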
